A study of Mus musculus with 18 samples.

Results

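The interferon-γ–induced GTPases examined here were 10 mouse genes, namely the guanylate-binding proteins Gbp2, Gbp3, Gbp4, Gbp5, Gbp6 and Gbp7 and the immunity-related GTPases Irgm1, Irgm2, Igtp and Iigp1. They were chosen by gene symbol, and all 10 were found among the 47729 genes of the count table. RNA-Seq was done on whole colon tissue in 9 libraries, counted here as 9 mice in 3 groups of 3, and each library was sequenced on 2 lanes that were summed here. Control WT mice (mice 1 to 3) carried no transgene and had the entry Control as their treatment, although the treatment text attached to every sample, controls included, names the carcinogen protocol. AOM-DSS WT mice (mice 4 to 6) had the WT genotype and received 1 dose of azoxymethane (AOM, 10 mg/kg), a colon carcinogen, and 3 cycles of 2.5% dextran sulfate sodium (DSS), which injures the colonic epithelium and causes colitis. AOM-DSS Claudin-2TG mice (mice 7 to 9) received the same treatment and carried a Cldn2 transgene under the Villin promoter, which is active in intestinal epithelium. All 3 groups were on the C57BL/6 background, ages were not in the labels, and no Claudin-2TG mice without AOM-DSS were analysed here, so an effect of the transgene without treatment could not be assessed.

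Interferon-γ, made mainly by T and NK cells, signals through its receptor and the kinases JAK1 and JAK2 and acts on its target genes through gamma-activated sites (GAS). IRF1 and related factors bind interferon-stimulated response elements (ISRE), and genes with either element include the GBP and IRG GTPases. These proteins gather on vacuoles and bacteria inside the cell: GBPs help to break them open and expose their contents to inflammasomes, the effector Iigp1 damages the vacuole membrane, and Irgm1, Irgm2 and Igtp are regulatory members that keep effectors off the membranes of the host cell.

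On GRCm38 the GBPs lay in 2 clusters. Gbp5, Gbp7, Gbp3 and Gbp2 lay in that order on the plus strand of chromosome 3, where Gbp5 started at 142493978 and Gbp2 ended at 142638008. The family gene Gbp2b lay between Gbp3 and Gbp2. Gbp4 and Gbp6 were on the minus strand of chromosome 5, at 105115767 to 105139586 and 105270702 to 105293698. Igtp and Irgm2 were overlapping neighbours on the plus strand of chromosome 11, at 58199556 to 58207591 and 58199618 to 58222782. Irgm1 lay apart from them on its minus strand, at 48861968 to 48871683. Windows of 250 bases before to 50 bases after a RefSeq transcription start (GRCm38.p6) were found for 7 of the 10 members, with 2 windows for Gbp3, and were searched on both strands for an ISRE core, GAAANNGAAA, and for a GAS core, TTCNNNGAA. Of the 8 windows, 7 held the ISRE letters and 4 held the GAS letters, whereas 3.44% and 8.3% of all 32851 mouse promoter windows did. Both motifs were in 4 of the 8 windows and in 0.454% of all windows. A match is a description of the letters and not evidence of binding. Of the windows, 4 are printed, since they give the member of highest level (Gbp2), a member with both motifs on the GBP cluster (Gbp7) and the regulatory neighbours Igtp and Irgm2, with the matches in capitals and all sequences written 5′ to 3′ on the strand of the gene.
Gbp2: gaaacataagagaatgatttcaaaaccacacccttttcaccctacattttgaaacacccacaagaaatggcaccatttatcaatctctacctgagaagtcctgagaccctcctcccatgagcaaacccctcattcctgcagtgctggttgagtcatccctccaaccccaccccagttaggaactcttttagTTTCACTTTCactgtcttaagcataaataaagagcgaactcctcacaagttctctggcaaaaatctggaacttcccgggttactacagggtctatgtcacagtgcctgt
Gbp7: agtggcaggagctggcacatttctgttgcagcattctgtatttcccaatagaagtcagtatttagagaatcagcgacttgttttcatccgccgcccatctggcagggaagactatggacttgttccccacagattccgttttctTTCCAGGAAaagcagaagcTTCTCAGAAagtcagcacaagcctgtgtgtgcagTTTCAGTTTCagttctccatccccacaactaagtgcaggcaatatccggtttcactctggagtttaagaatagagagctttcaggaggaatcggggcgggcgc
Igtp: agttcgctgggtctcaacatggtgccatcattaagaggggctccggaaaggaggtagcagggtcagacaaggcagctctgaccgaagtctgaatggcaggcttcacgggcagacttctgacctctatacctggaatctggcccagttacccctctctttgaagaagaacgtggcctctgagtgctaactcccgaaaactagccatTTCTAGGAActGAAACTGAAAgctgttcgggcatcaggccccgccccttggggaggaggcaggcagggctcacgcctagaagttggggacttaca
Irgm2: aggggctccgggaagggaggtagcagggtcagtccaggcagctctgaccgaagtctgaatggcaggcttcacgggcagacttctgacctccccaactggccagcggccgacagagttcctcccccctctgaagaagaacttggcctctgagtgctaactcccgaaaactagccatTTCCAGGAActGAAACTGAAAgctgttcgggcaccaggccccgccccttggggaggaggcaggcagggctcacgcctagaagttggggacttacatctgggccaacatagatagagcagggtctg
The Gbp2 window was chr3:142620413-142620712, and its ISRE match began 59 bases before the start. The Gbp7 window was chr3:142530086-142530385, with GAS matches 106 and 87 bases and an ISRE match 53 bases before the start. The Igtp window was chr11:58199306-58199605 and the Irgm2 window was chr11:58214727-58215026. In both, a GAS match stood immediately upstream of an ISRE match, at 45 and 34 bases before the start in Igtp and at 75 and 64 bases in Irgm2. The start meant is that of RefSeq, and for Irgm2 it lay inside the annotated gene span, downstream of its first base at 58199618. Shifted by 30 bases, the Irgm2 window was identical to the Igtp window at 184 of 270 bases. Gbp5 held both motifs too. Irgm1 held 2 overlapping ISRE matches, at 30 and 24 bases before its start, as did 1 of the Gbp3 windows, at 45 and 39 bases.

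Libraries held 14142711 to 22262546 counts, and the second lane was shallower in mice 6, 7 and 9. Cldn2, the gene carried by the transgene, was 191 to 259 CPM in Control WT, 119 to 137 CPM in AOM-DSS WT and 208 to 251 CPM in AOM-DSS Claudin-2TG mice, so it was higher in the transgenic than in the WT mice under treatment (log2 fold change 0.78 ± 0.12, SE; adjusted p = 0.0103, edgeR). It was not above the Control WT level, since the transgenic values lay within the range of the controls (log2 fold change -0.03 ± 0.12; adjusted p = 0.897), and counts do not separate transgene from endogenous transcripts. The colon epithelium markers, 13 genes, summed to 23004 to 33108 CPM in the 9 mice. Mouse 1 stood apart in Xist, at 214 CPM against at most 0.203 CPM in the other 8 mice, and results are also given without this mouse. All values in CPM (counts scaled to library size) used TMM scaling, and a gene was called at an edgeR adjusted p under 0.05 over all genes tested. The study describes the libraries of the AOM-DSS groups as replicate mice, while for Control WT the labels give sample numbers alone, and p-values measure the spread between these samples.

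Several members share sequence with neighbours, which limits how surely reads were assigned. Of the exon bases of Gbp6, 29.0% overlapped Gm43302 on the same strand, and 70.7% of its 50-base words occurred in other genes, mostly Gm43302 and Gbp10, so Gbp6 counts are uncertain. Gbp7 overlapped Gm43802 over 11.3% of its exon bases. Igtp and Irgm2 shared 162 exon bases, or 8.01% and 4.39% of their lengths. The share of 50-base words found in other genes was 11.8% for Igtp and 12.7% for Gbp7, and lay between 0.31% and 7.77% for the other members apart from Gbp6.

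In the colon of Control WT mice, transcripts of all 10 GTPases were detected, and their levels per length spanned a wide range. Gbp2 had the highest level, 15.9 ± 6.88 RPKM (CPM per kilobase of gene length; SD, n = 3), followed by the regulatory IRGs, with Irgm1 at 10.8 RPKM, Irgm2 at 9.10 RPKM and Igtp at 9.06 RPKM. Gbp3, Gbp7 and Iigp1 were lower, at 3.21, 2.05 and 1.39 RPKM. Gbp5, a GBP known for its part in inflammasome activation, was at 0.411 RPKM, Gbp4 at 0.198 RPKM and Gbp6 at 0.119 RPKM. Neighbours in this order had overlapping ranges over the 3 mice, except that every mouse's Igtp level was above every mouse's Gbp3 level, and likewise for Gbp5 over Gbp4. Compared within each mouse, neighbours kept this order in all 3 mice, except Irgm1 over Irgm2, Irgm2 over Igtp and Gbp7 over Iigp1, each in 2 of 3. Gbp2 was the highest of the 10 and Gbp6 the lowest in each of the 9 mice.

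Under AOM-DSS the order changed in part. In AOM-DSS WT mice Gbp2 reached 78.4 ± 44.3 RPKM and Igtp 32.0 ± 12.4 RPKM, ahead of Irgm1 at 19.1 RPKM and Irgm2 at 18.7 RPKM, then Gbp3 at 12.3 RPKM and Iigp1 at 10.9 RPKM (SD, n = 3). All neighbours in the AOM-DSS WT order had overlapping ranges over the mice. Compared within each mouse, neighbours kept this order in all 3 mice, except Irgm1 over Irgm2 and Iigp1 over Gbp7, each in 2 of 3. In AOM-DSS Claudin-2TG mice the order began in the same way, with Gbp2 at 23.8 ± 11.6 RPKM, Igtp at 14.7 ± 3.72 RPKM, Irgm1 at 11.9 RPKM and Irgm2 at 10.2 RPKM. There the levels of all mice were separate between Irgm2 and Gbp3, at 2.89 RPKM, and between Gbp7, at 2.41 RPKM, and Gbp5, at 0.338 RPKM. Within each mouse, neighbours kept the order of the means in all 3 mice, with these exceptions. Igtp over Irgm1, Gbp3 over Iigp1 and Gbp5 over Gbp4 held in 2 of 3, and Iigp1 over Gbp7 in 1 of 3.

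The makeup of the group was also compared as shares of the summed RPKM of the 10 members in each mouse. Shares stay the same when all members change by the same factor, but can follow the summed level when they do not. The Irgm1 share was lowest in mice 5 and 6, which had the highest summed RPKM, 279 and 168. This share was thus not separate from the summed level. Gbp2 made up 30.0%, 32.4% and 29.7% of the sum in Control WT mice and 37.5%, 44.3% and 45.9% in AOM-DSS WT mice. Irgm1 made up 22.0%, 23.1% and 18.9% in Control WT mice and 14.8%, 9.67% and 9.96% in AOM-DSS WT mice. The groups did not overlap for either share, and the 2-sided exact permutation p was 0.1 for both, the smallest that 3 mice against 3 allow (adjusted p = 0.3 over the 30 shares compared). The shares of Gbp6, Gbp7 and Irgm2 were also lower in every AOM-DSS WT mouse than in every control, and the other 5 overlapped. In AOM-DSS Claudin-2TG mice the Gbp2 share was 39.8%, 33.8% and 25.2%, and the Irgm1 share was 14.7%, 15.6% and 24.5%, so both overlapped both other groups. Against AOM-DSS WT, the transgenic mice had a separate and lower share of Gbp4, 0.286 ± 0.108% against 0.756 ± 0.328% (SD, n = 3), and separate and higher shares of Gbp7, 3.51 ± 0.151% against 2.71 ± 0.533%, and Irgm2, 15.1 ± 1.28% against 10.9 ± 1.64%. Against Control WT, their shares of Gbp3, 4.06 ± 1.11% against 6.06 ± 0.231%, and Gbp5, 0.507 ± 0.208% against 0.812 ± 0.0981%, were separate and lower. None of the 30 could pass an exact permutation test at 0.05 with these group sizes, and shares of 1 sum are not independent of each other.

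To ask how the carcinogen and colitis protocol was reflected in these genes, AOM-DSS WT was compared with Control WT. All 10 members had a positive log2 fold change, with a median of 1.90 beside 0.02 for all genes tested, and 4 passed the test, the GBPs Gbp2, Gbp4 and Gbp7 and the regulatory IRG Igtp. Of the 15437 genes tested, 8.04% were called higher. In 5 of the 10 members the 2 groups did not overlap, all with AOM-DSS WT higher, and 17.7% of all genes tested were separated in that direction. No member was called lower by edgeR or DESeq2. DESeq2, the test named in the study's methods, called 8 members higher, all but Gbp6 and Irgm2, and 10.4% of the 17248 genes to which it gave an adjusted p. In bulk tissue, fewer cells of a type and less RNA per cell cannot be told apart.

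Gbp2, which coats bacteria and vacuoles, was at 27.7, 32.7 and 59.8 CPM in Control WT and at 87.6, 310, and 194 CPM in AOM-DSS WT mice. Every treated mouse was above every control, and Gbp2 rose by 2.32 ± 0.50 on the log2 scale (SE; 5.0-fold; adjusted p = 0.0295). Gbp4 was at 1.54, 0.90 and 2.0 CPM in Control WT and at 2.74, 21.6 and 10.6 CPM in AOM-DSS WT mice. Here too the groups were separate, but mouse 4 lay close to the highest control while mouse 5 was 7.87-fold above mouse 4. The log2 fold change of Gbp4, 2.99 ± 0.72 (adjusted p = 0.0370), was close to that of Iigp1. Gbp7 was at 9.60, 9.39 and 15.5 CPM in Control WT and at 17.3, 39.1 and 21.8 CPM in AOM-DSS WT mice. It rose less, by 1.20 ± 0.33 (2.31-fold; adjusted p = 0.0489).

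Igtp, also known as Irgm3, was the IRG that passed the test. Its levels were 15.1, 11.8 and 28.1 CPM in Control WT and 41.3, 91.4 and 61.7 CPM in AOM-DSS WT mice. The lowest treated mouse was above the highest control, and Igtp rose by 1.84 ± 0.39 (3.59-fold; adjusted p = 0.0273). The other regulatory IRGs gave smaller values that did not pass: Irgm1, known for its roles in autophagy and in restraining the effector IRGs, was at 46.8, 53.7 and 88.0 CPM in Control WT and at 79.8, 157 and 97.2 CPM in AOM-DSS WT mice, and its log2 fold change was 0.85 ± 0.31 (adjusted p = 0.107). Irgm2 was at 19.0, 25.7 and 56.2 CPM in Control WT and at 43.7, 102 and 61.1 CPM in AOM-DSS WT mice, with a log2 fold change of 1.06 ± 0.46 (adjusted p = 0.166). In both genes mouse 3, a control, was above mouse 4, a treated mouse.

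Iigp1, the effector IRG, had almost the same fold change as Gbp4 but a wider spread. Of the members it is the one on the plus strand of chromosome 18, at 60376029 to 60392627, where the family genes Gm4951 and F830016B08Rik lay upstream of it on the same strand, starting at 60212080 and 60293380. It was at 1.74, 1.26 and 10.0 CPM in Control WT and at 9.40, 64.9 and 27.9 CPM in AOM-DSS WT mice, so mouse 3 of the controls was above mouse 4, and the log2 fold change of 2.98 ± 0.97 had an adjusted p of 0.0859. Gbp5 was at 1.99, 2.41 and 3.78 CPM in Control WT and at 3.81, 24.1 and 9.51 CPM in AOM-DSS WT mice, separate by a narrow margin, with a log2 fold change of 2.21 ± 0.64 (adjusted p = 0.0602). Gbp3, at 7.12, 7.73 and 16.5 CPM in Control WT and 15.95, 68.0 and 36.6 CPM in AOM-DSS WT mice, overlapped, with a log2 fold change of 1.96 ± 0.57 (adjusted p = 0.0623). Gbp6 was at most at 2.34 CPM in any mouse, and its log2 fold change was 1.08 ± 0.55 (adjusted p = 0.215). At an unadjusted p under 0.05, 8 of the 10 members and 5032 of the 15437 genes were below the threshold in this comparison.

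**Figure D1:**
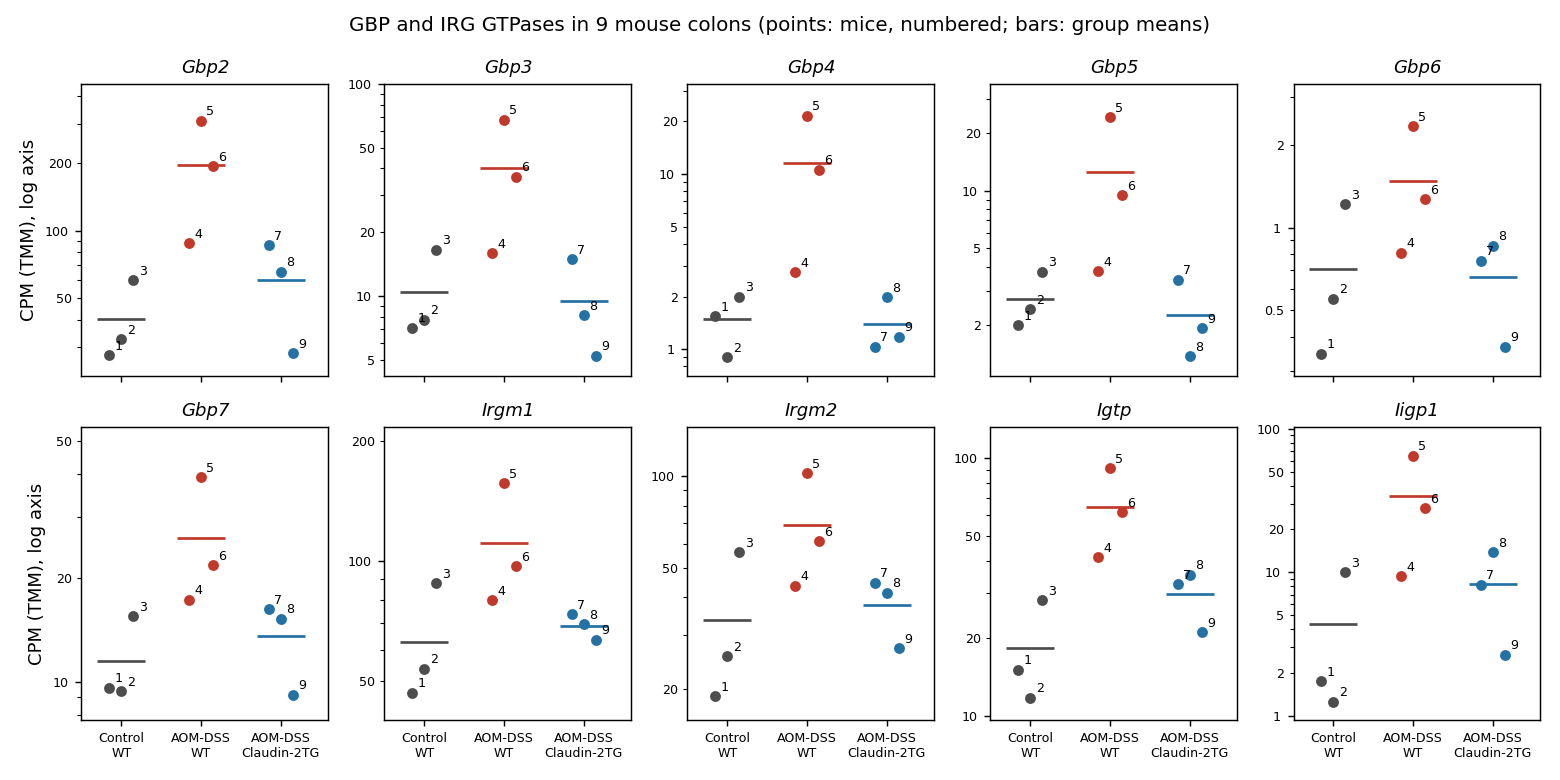
CPM of each member (TMM-scaled, log axis, own scale in each panel) in the 9 mice, numbered as in the text, with Control WT in grey, AOM-DSS WT in red and AOM-DSS Claudin-2TG in blue, and horizontal bars for group means. Mouse 5 was the highest and mouse 4 the lowest AOM-DSS WT mouse in all 10 panels, and mouse 3 was the highest control in all 10.

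The panels by mouse show that the members shared their order over the AOM-DSS WT mice, where all 10 were highest in mouse 5 and lowest in mouse 4. Among the controls all 10 were highest in mouse 3, while 6 were lowest in mouse 1 and 4 in mouse 2. The transgenic mice were less uniform: 6 members were highest in mouse 7 and 4 in mouse 8, and 8 were lowest in mouse 9, 1 in mouse 7 and 1 in mouse 8. The summed level of the 10 was 131, 146 and 281 CPM in Control WT, 302, 881 and 521 CPM in AOM-DSS WT and 281, 253 and 161 CPM in AOM-DSS Claudin-2TG mice. Thus the summed level of mouse 4, 302 CPM, was close to that of mouse 3, a control. The highest mouse exceeded the lowest of its group by a median of 2.27-fold over the members in Control WT, 3.21-fold in AOM-DSS WT and 2.12-fold in AOM-DSS Claudin-2TG mice. Irgm1 had the narrowest spread, 1.16-fold among the AOM-DSS Claudin-2TG mice, and Iigp1 the widest, 7.99-fold among the controls.

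The number of calls depended on which mice were in the fit. For AOM-DSS WT against Control WT, 0 members were called without mouse 1, 2, 5 or 6 and 1, Igtp, without mouse 3, whereas 6 were called without mouse 4. The number of all genes called fell and rose with them, from 2310 with all 6 mice to 135 without mouse 2 and 4080 without mouse 4. The median log2 fold change of the members ranged from 1.34 without mouse 5 to 2.35 without mouse 3, and all 10 fold changes remained positive in each of these fits.

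**Figure D2:**
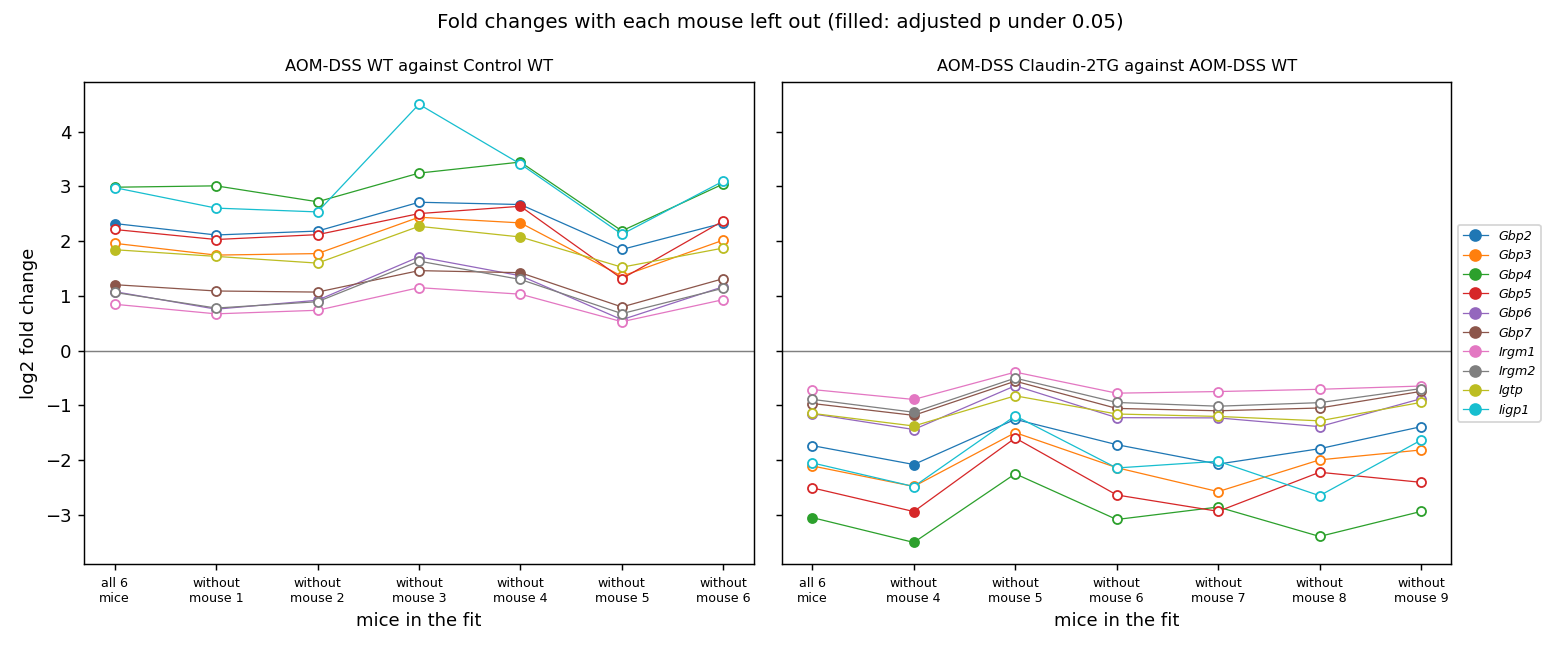
Log2 fold change of each member (vertical axis) with all 6 mice and with each mouse left out in turn (horizontal axis), for AOM-DSS WT against Control WT on the left and AOM-DSS Claudin-2TG against AOM-DSS WT on the right, with filled points for an adjusted p under 0.05. All points on the left are above 0 and all on the right below 0, and leaving out mouse 4 gave the most calls in both, 6 and 8.

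To ask whether the epithelial Claudin-2 transgene was accompanied by a different level under the same treatment, AOM-DSS Claudin-2TG was compared with AOM-DSS WT, the group that also served in the first comparison. All 10 members had a negative log2 fold change, with a median of -1.44 beside 0.01 for all genes tested, and 1, Gbp4, passed the test. Of the 14888 genes tested, 7.35% were called lower. In 7 members every transgenic mouse was below every AOM-DSS WT mouse, and 14.3% of all genes tested were separated in that direction. All 10 members and 3498 of the 14888 genes had an unadjusted p under 0.05. No member was called higher.

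Gbp4 was at 2.74, 21.6 and 10.6 CPM in AOM-DSS WT and at 1.03, 1.98 and 1.18 CPM in AOM-DSS Claudin-2TG mice, so the groups were separate. It fell by 3.05 ± 0.73 on the log2 scale (SE; adjusted p = 0.0436, edgeR). The other members did not pass the adjusted threshold. The next lowest adjusted p was that of Igtp, 0.0554, with 32.4, 35.4 and 21.1 CPM in transgenic mice, all below the 41.3 CPM of the lowest AOM-DSS WT mouse, and a log2 fold change of -1.15 ± 0.30.

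Among the other GBPs, Gbp2 was at 86.1, 65.5 and 28.3 CPM in the transgenic mice, where mouse 7 lay just below the 87.6 CPM of mouse 4 and mouse 9 was at the level of the lowest control. Its log2 fold change was -1.73 ± 0.55 (adjusted p = 0.112). Gbp5 was at 3.44, 1.37 and 1.92 CPM in these mice, with a log2 fold change of -2.51 ± 0.70 (adjusted p = 0.0709). Both genes were separate between the groups but by narrow margins. Gbp3 was at 14.9, 8.16 and 5.24 CPM, with a log2 fold change of -2.11 ± 0.60 (adjusted p = 0.0826). Gbp7, at 16.2, 15.2 and 9.16 CPM, was also separate and had a smaller log2 fold change, -0.97 ± 0.33 (adjusted p = 0.121). Gbp6 overlapped, with a log2 fold change of -1.15 ± 0.50 (adjusted p = 0.200).

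Among the other IRGs, Irgm1 was at 73.6, 69.6 and 63.6 CPM in the transgenic mice, all below the 79.8 CPM of mouse 4. Its log2 fold change, -0.71 ± 0.23, was the smallest in size of the 10 (adjusted p = 0.0951). Irgm2, at 44.7, 41.4 and 27.2 CPM, overlapped AOM-DSS WT through mouse 7 and had a log2 fold change of -0.89 ± 0.32 (adjusted p = 0.140). Iigp1, at 8.20, 13.8 and 2.66 CPM, overlapped through mouse 8 and had a log2 fold change of -2.05 ± 0.80 (adjusted p = 0.184).

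The single call in this comparison depended on the mice. Without mouse 4, the AOM-DSS WT mouse of lowest level, 8 members were called lower, all but Gbp6 and Iigp1, and without mouse 5, 6, 7, 8 or 9 none was, while 1 was called with all 6 mice. The count of all genes called went from 1421 to 2894 without mouse 4 and to 58 without mouse 8. The median log2 fold change of the members stayed between -1.76 and -1.01 in these fits, and all 10 fold changes remained negative. DESeq2 called 7 members lower, all but Gbp2, Gbp6 and Iigp1, and 8.93% of the 18054 genes to which it gave an adjusted p.

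**Figure D3:**
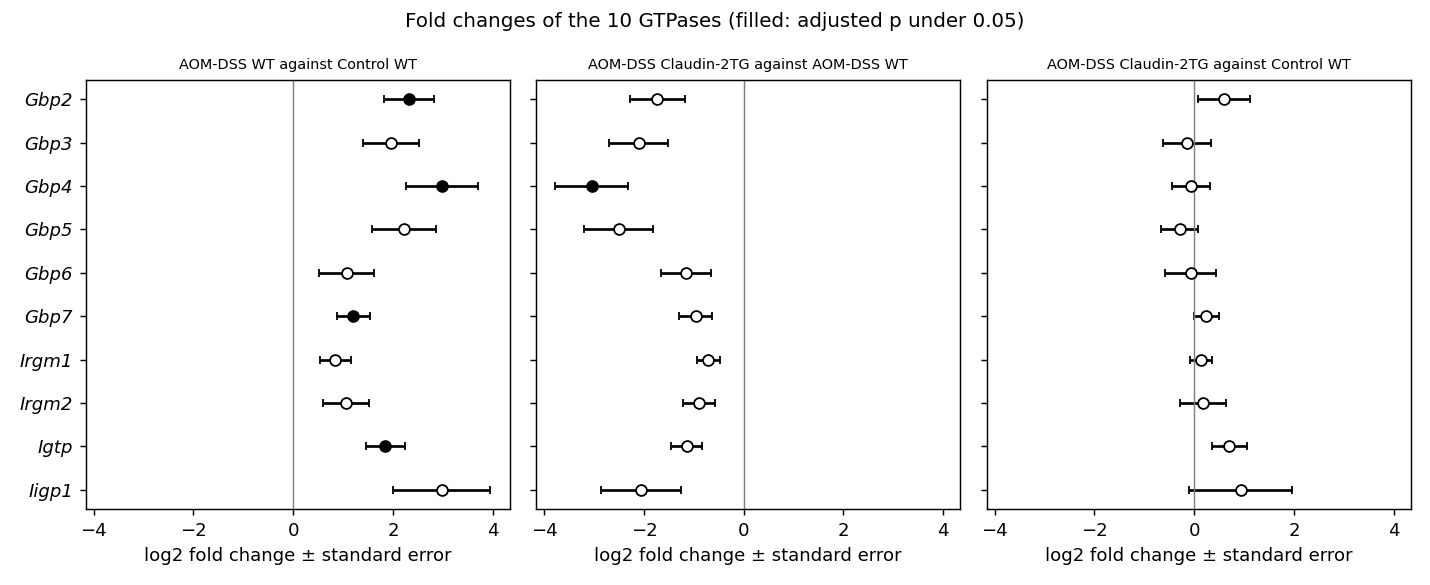
Log2 fold change (points) with its standard error (bars) for the 10 members in the 3 comparisons, from edgeR on 3 mice against 3, with filled points for an adjusted p under 0.05. In the left panel 4 members are filled and in the middle panel 1, and in the right panel all 10 lie between -0.29 and 0.93 and none is filled.

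When AOM-DSS Claudin-2TG was compared with Control WT, no member was called in either direction. Of the 15013 genes tested, 10.0% were called in either direction. The groups overlapped in all 10 members, whereas 31.2% of all genes tested were separated in one direction or the other. No member had an unadjusted p under 0.05, against 3896 of the 15013 genes tested. DESeq2 called none of the 10, while it called 11.3% of 15852 genes in either direction. The median log2 fold change was 0.16, beside 0.00 for all genes tested, with 6 members positive and 4 negative. The largest value was that of Iigp1, 0.93 ± 1.03 (adjusted p = 0.628), and the lowest that of Gbp5, -0.29 ± 0.37 (adjusted p = 0.660). Igtp had the lowest adjusted p, 0.267, with 0.70 ± 0.35.

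A p above the threshold does not show that the levels were the same, and the standard errors allow differences of different size for different members. They were smallest for Irgm1, 0.14 ± 0.22, and Gbp7, 0.24 ± 0.25, and largest for Iigp1. Without mouse 1, no member was called and 4 of the 10 fold changes were positive, against 6 with all mice. Mouse 3 also had an influence on the fold changes. Without it, Igtp alone was called, and higher in the transgenic mice (log2 fold change 1.14, adjusted p = 0.0331, edgeR). All 10 fold changes were then positive, with a median of 0.55. In that fit 3.44% of the 15256 genes tested were called, against 10.0% with all 6 mice.

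The other GBP and IRG family genes on the list, 18 in number and many at low counts, were tested in part. In AOM-DSS WT against Control WT, 11 were tested, 10 of them with a positive fold change, and 4 were called higher, namely Gbp8, Gbp9, Tgtp1 and Gm4951. Gbp8 went from 0.85, 0.70 and 0.96 CPM to 3.05, 5.44 and 5.16 CPM, a log2 fold change of 2.46 ± 0.33 (adjusted p = 0.00806), and Gbp9 from 1.09, 0.75 and 1.26 CPM to 2.74, 10.97 and 7.77 CPM, 2.80 ± 0.51 (adjusted p = 0.0170). Tgtp1 and Gm4951, both IRG family genes, were at or below 0.39 CPM in every control and had log2 fold changes of 3.96 and 4.30. In AOM-DSS Claudin-2TG against AOM-DSS WT, 8 were tested and 2 were called lower, Gbp8 with a log2 fold change of -1.72 ± 0.32 (adjusted p = 0.0150) and Gbp9 with -2.35 ± 0.48 (adjusted p = 0.0219). Against Control WT none of the 6 tested was called in the transgenic mice by edgeR, 1 had an unadjusted p under 0.05 and DESeq2 called 0, while it called 6 higher in the first comparison and 4 lower in the second. Gbp4 shared 61 exon bases with Gbp8 and Gbp9, 0.814% of its length, so these neighbours overlap slightly in the annotation. The call of Gbp8 in the treated WT mice was kept in 14 of 15 fits (the main one and 14 alternatives that changed the scaling, test, filter, lanes or mice, fewer where a gene was not tested) and that of Gbp9 in 12 of 15, whereas those of Tgtp1 and Gm4951 were kept in 6 of 12 each.

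The interferon-γ pathway list held the cytokine, its receptor and kinases, factors that act on its target genes, and the IL-12 and IL-18 arm that drives its production. Ifng itself was nearly undetected, with 0, 0 and 1 counts in Control WT, 2, 2 and 4 in AOM-DSS WT and 0, 3 and 1 in AOM-DSS Claudin-2TG mice, too few to be tested. The receptor chains Ifngr1 and Ifngr2 and the kinases Jak1 and Jak2 were well expressed and were not called by edgeR in any comparison, while DESeq2 called Ifngr1 higher in AOM-DSS Claudin-2TG against Control WT. For AOM-DSS WT against Control WT their log2 fold changes were 0.03, 0.17, -0.25 and 0.05. Of 20 pathway genes tested in that comparison, 6 were called higher, beside 8.04% of all genes tested, and 1 lower. Of 16 tested in AOM-DSS Claudin-2TG against AOM-DSS WT, 2 were called lower, beside 7.35% of all genes tested, and 1 higher. Of 15 tested in AOM-DSS Claudin-2TG against Control WT, 1 was called higher, beside 589 of all 15013 genes tested. DESeq2 called 9 higher and 2 lower, 1 higher and 6 lower, and 2 higher in the 3 comparisons.

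Nlrc5, the activator of MHC class I genes, was at 1.49, 1.51 and 8.60 CPM, at 8.58, 32.7 and 23.6 CPM and at 4.0, 4.46 and 3.03 CPM in Control WT, AOM-DSS WT and AOM-DSS Claudin-2TG mice. Its log2 fold change was 2.49 ± 0.80 in AOM-DSS WT against Control WT, which did not pass (adjusted p = 0.0827), and it fell by 2.51 ± 0.46 in the transgenic mice (adjusted p = 0.0190), kept in 10 of 15 fits.

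Ciita, the activator of MHC class II genes, rose by 2.53 ± 0.48 in AOM-DSS WT against Control WT (adjusted p = 0.0194), and Socs1, a feedback inhibitor of JAK signalling, by 1.25 ± 0.29 (adjusted p = 0.0308). Irf1 rose little, by 0.47 ± 0.12 (adjusted p = 0.0429), from 169 to 201 CPM in the controls to 230 to 287 CPM, and Irf2, which competes with it for binding, fell by 0.47 ± 0.13 on the log2 scale (adjusted p = 0.0466). The other genes called higher were the IL-18 receptor chains Il18r1, by 2.53, and Il18rap, by 3.11, and Stat4, which acts downstream of IL-12, by 1.83, all 3 at or below 3.58 CPM in every mouse. In the transgenic against the AOM-DSS WT mice, Stat2, a factor of type I interferon signalling, fell by 0.79 ± 0.19 on the log2 scale (adjusted p = 0.0342), and the cytokine Il18 rose by 0.58 ± 0.15 (adjusted p = 0.0490). Batf2 was the gene called higher in AOM-DSS Claudin-2TG against Control WT, by 0.44 ± 0.10 (adjusted p = 0.0209). These calls were kept in 5 of 15 fits for Il18, 6 of 15 for Irf2, 9 of 15 for Irf1 and Socs1, 10 of 15 for Batf2, 11 of 15 for Stat2, 12 of 15 for Ciita, 7 of 12 for Il18r1 and Il18rap and 6 of 12 for Stat4.

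**Figure D4:**
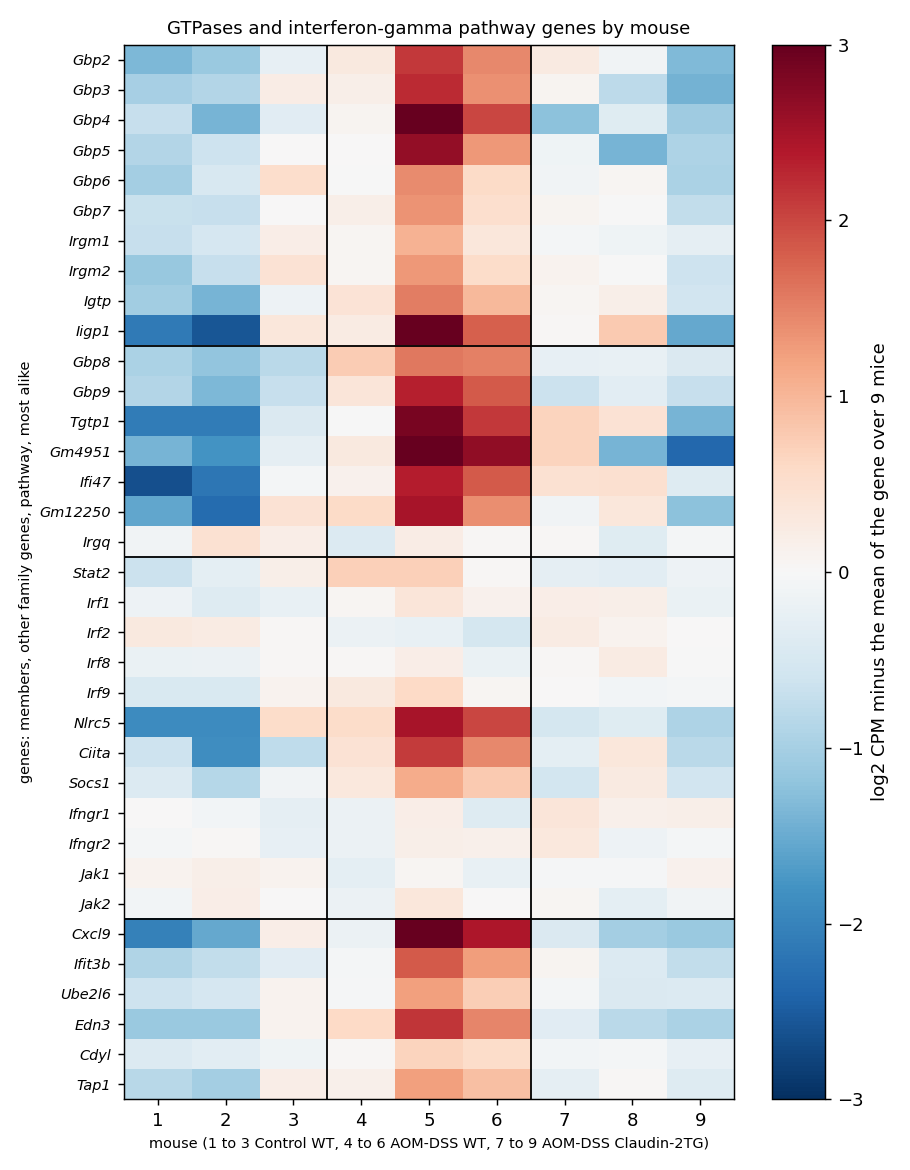
Log2 CPM of each gene minus its mean over the 9 mice (colour, from -3 in blue to 3 in red) for the 10 members, 7 other GBP or IRG family genes, 12 interferon-γ pathway genes and 6 of the genes most like the members, with mice 1 to 9 as columns and black lines between groups. The members, Nlrc5 and Ciita are reddest in mouse 5, and Ifngr1, Ifngr2, Jak1 and Jak2 are pale across all 9 mice.

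The heat map of pathway genes places the regulators beside the members mouse by mouse. Type I and III interferon genes gave no call by edgeR in any comparison among the 6 tested. DESeq2 gave 1, 1 and 0 calls in the 3 comparisons, with Irf7 higher in the first and Ifnar2 lower in the second. Ifnb1, Ifnl2 and Ifnl3 had 0 counts in every mouse, which allows up to 3 counts per library. The 3 genes of highest level, Irf7, Irf3 and Tyk2, had log2 fold changes of 0.95, 0.21 and 0.09 in AOM-DSS WT against Control WT. At an unadjusted p under 0.05 there was 1 such gene in that comparison, 2 in AOM-DSS Claudin-2TG against AOM-DSS WT and 0 in AOM-DSS Claudin-2TG against Control WT.

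Genes that act with or beside the GTPases in cell-autonomous defense included the following calls. Of 27 effector and partner genes tested in AOM-DSS WT against Control WT, 6 were called higher, beside 8.04% of all genes tested, and 0 lower. Of 26 in AOM-DSS Claudin-2TG against AOM-DSS WT, 3 were called lower, beside 7.35% of all genes tested, and 0 higher. In the transgenic mice against Control WT, 4 of 26 were called higher, beside 589 of all 15013 genes tested. The 4 were the inflammasome genes Casp1 and Gsdmd, the autophagy gene Atg16l1 and Lgals3. DESeq2 called 7 higher, 7 lower and 5 higher in the 3 comparisons. The 3 of highest level, the galectin Lgals3, Arhgdia and Gabarap, had log2 fold changes of 0.53, 0.29 and 0.16 in the first comparison, none called, and Lgals3 was among the 4 called higher in transgenic mice against Control WT, by 0.54 ± 0.11 (adjusted p = 0.0126), a call kept in 13 of 15 fits. Named after their values were seen, the 3 genes called lower in the transgenic mice against AOM-DSS WT were Cybb, a subunit of the phagocyte NADPH oxidase, the tryptophan-degrading enzyme Ido1 and the itaconate-producing enzyme Acod1, with log2 fold changes of -2.62, -1.98 and -4.73. These calls were kept in 13 of 15, 6 of 15 and 6 of 12 fits.

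Of 34 interferon-stimulated genes outside the GTPases, 7 were called higher in AOM-DSS WT against Control WT, beside 8.04% of all genes tested, and 0 lower. Their median log2 fold change was 0.73. In AOM-DSS Claudin-2TG against AOM-DSS WT, 5 were called lower, beside 7.35% of all genes tested, and 0 higher, with a median of -0.85. In AOM-DSS Claudin-2TG against Control WT none was called by edgeR, with 5 at an unadjusted p under 0.05 and a median of -0.02. There DESeq2 called 2 higher and 1 lower. In the first 2 comparisons DESeq2 called more of the list than edgeR, 14 higher and 17 lower. The 3 of highest level, the RNA sensor Ifih1, Parp9 and Oasl2, had log2 fold changes of 0.06, 0.73 and 0.53 in the first comparison and were not called. The 5 called lower in the transgenic mice, named after their values were seen, were Ifit2, Oas2, Usp18, Bst2 and Tap1, with calls kept in 7 to 9 of 15 fits.

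The genes whose pattern over the 9 mice was most like that of the members were found by Pearson's r with the mean of the centred log2 CPM of the members, among 13916 genes with a mean of at least 1 CPM. Those most alike outside the members included the chemokine Cxcl9 (r = 0.974), Ifit3b (r = 0.970), Ube2l6 (r = 0.970), which conjugates ISG15, endothelin-3 (Edn3, r = 0.968), Cdyl (r = 0.967), Nlrc5 (r = 0.967) and Tap1 (r = 0.965), the peptide transporter of antigen presentation. Cxcl9 was at 0.50, 0.75 and 2.74 CPM in Control WT, at 2.08, 32.4 and 13.1 CPM in AOM-DSS WT and at 1.72, 1.11 and 1.03 CPM in AOM-DSS Claudin-2TG mice. Edn3 was at 1.69, 1.71 and 4.13 CPM, 5.84, 17.1 and 10.7 CPM and 2.96, 2.13 and 1.92 CPM. Both were highest in mice 5 and 6, and Cxcl9 in mouse 4 was within the range of the controls. The points are the same 9 mice and share the group differences, so r is a description. Of the members themselves, Gbp7 ranked 1 and Gbp5 69 in this list, while Gbp6 was below the minimum level. Each member is part of the mean it was compared with, so high ranks of members are built in and are no result.

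Markers of leukocytes differed between the groups along with the members. In AOM-DSS WT against Control WT, 8 of the 12 T and NK cell markers tested and 6 of 12 macrophage and monocyte markers were called higher. So were 4 of 5 dendritic cell markers and all 4 neutrophil markers tested, beside 8.04% of all genes tested. Among other markers, 1 of 8 B and plasma cell, 1 of 7 endothelial, 1 of 7 fibroblast and 0 of 13 epithelial markers were called higher. DESeq2, which gave an adjusted p to more genes, called 9 of 13, 7 of 12, 4 of 7 and 6 of 7 of these leukocyte markers higher, with 4 of 7 fibroblast markers and 1 of 13 epithelial markers, Krt18, and 2 of 7 smooth muscle markers lower. In AOM-DSS Claudin-2TG against AOM-DSS WT, 7 of 12, 8 of 12, 2 of 4 and 2 of 3 of these leukocyte markers were called lower. So were 2 of 8 B and plasma cell, 3 of 7 fibroblast and 3 of 7 endothelial markers, beside 7.35% of all genes tested. There DESeq2 called lower 8 of 13 T and NK cell, 11 of 12 macrophage and monocyte, 3 of 7 dendritic cell and 5 of 7 neutrophil markers. It also called lower 6 of 8 B and plasma cell, all 7 fibroblast and 4 of 7 endothelial markers. Higher by DESeq2 were 2 of 13 epithelial markers, Cdx1 and Slc26a3. In AOM-DSS Claudin-2TG against Control WT, 10.0% of all genes tested were called in either direction. None of 11 T and NK cell markers and 1 of 12 macrophage and monocyte markers were called, the latter lower. There 3 of 7 endothelial, 3 of 7 smooth muscle and 1 of 7 fibroblast markers were called lower too, and 2 of 13 epithelial markers were called higher. Of the neutrophil list 1 gene, Ly6g, had enough counts to be tested there and was called higher, at 137 to 207 CPM in Control WT and 302 to 350 CPM in transgenic mice, whereas S100a8, S100a9, Csf3r and Cxcr2 were at or below 0.348 CPM in every mouse of both groups, so the defining neutrophil markers were near 0 in both. By DESeq2 all 7 smooth muscle markers and 3 each of the endothelial, fibroblast and macrophage and monocyte markers were lower. By either tool none of the 8 B and plasma cell markers was called. No gene of any marker list had 0 counts in all mice.

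The 15 T and NK cell markers, from the cells that make interferon-γ, summed to 5.32, 5.32 and 14.7 CPM in Control WT, 24.4, 56.6 and 51.4 CPM in AOM-DSS WT and 8.68, 8.67 and 15.1 CPM in AOM-DSS Claudin-2TG mice. AOM-DSS WT mice were above both other groups, and mouse 3 was the highest control, as it was for all 10 members. The 12 macrophage and monocyte markers summed to 184 to 213 CPM in Control WT, 228 to 467 CPM in AOM-DSS WT and 118 to 167 CPM in AOM-DSS Claudin-2TG mice. In the transgenic group mouse 9 had the highest T and NK cell sum but the lowest summed member level, 161 CPM. The 7 fibroblast markers were at 1133 CPM in mouse 5, against 187 to 522 CPM in the other 8 mice. The part of these cell types in the values of the members was not tested.

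**Figure D5:**
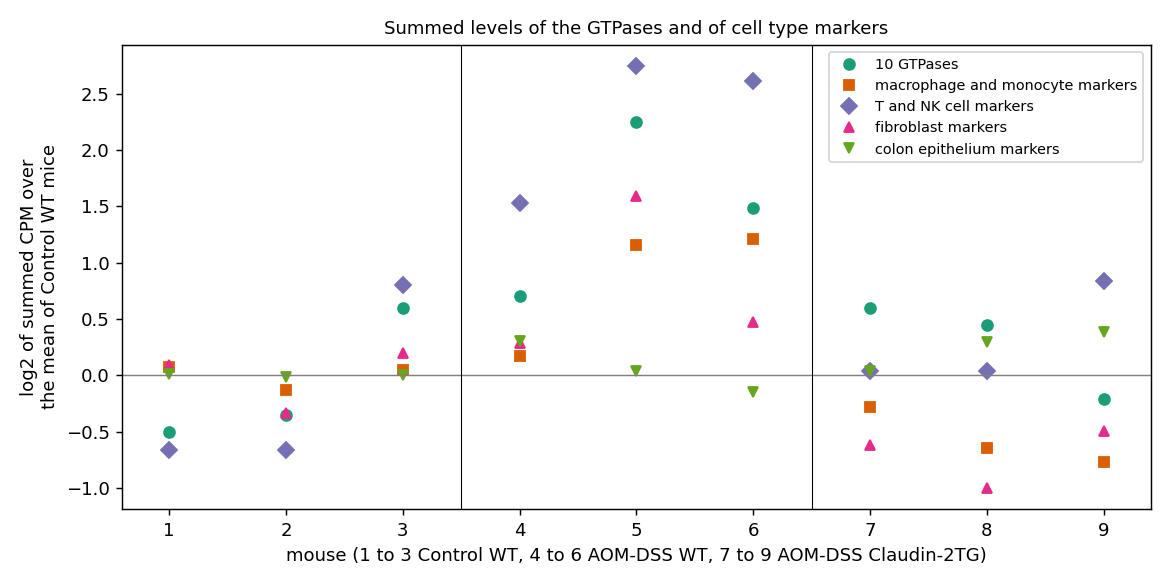
Summed CPM of the 10 members and of 4 marker lists in each of the 9 mice, as log2 of the ratio to the mean of the Control WT mice (vertical axis). Mice 5 and 6 are highest for the members and for the T and NK cell and macrophage markers, while the epithelial markers lie between -0.14 and 0.38.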

How the data were processed

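RNA-Seq counts per gene were used as the authors deposited them, whole numbers not normalized, in 18 columns (9 libraries on 2 lanes). The labels' processing notes name HISAT2, featureCounts from Subread and GRCm38, while the study's methods name TopHat2 and featureCounts; read length and strand setting were not given in the sources used here. The other deposited column used was gene length, in bases, for RPKM. Lanes were summed per library (14142711 to 22262546 counts). Each pair of groups was fitted with edgeR 4.0.16 (R 4.3.3), with filterByExpr (minimum count 10), TMM and the robust quasi-likelihood test, 2-sided, and p-values were adjusted by Benjamini-Hochberg over every gene that passed this filter; the study used DESeq2, here an alternative (1.42.0). A gene was called at an adjusted p under 0.05. The script was tested on simulated data. A prior count of 2 was used for log2 CPM. Alternatives were other scalings, filters, single lanes, 1 fit of all 9 mice and leaving out each mouse.

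Named genes were the 10 members, the family and pathway genes called in at least 1 comparison, the 3 genes of highest mean CPM of each other pathway list, and the 8 genes most like the members; 1 pathway gene is not reported here and was left out of the lists. The members and lists were chosen with earlier results of these data known. The limit given for a count of 0 covers counting error only, whereas SDs and SEs carry the spread between mice.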

Additional observations from a re-analysis of the deposited data

How the results depend on the processing

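The median log2 fold change of the members moved by less than the spread between mice under every alternative run in all 3 comparisons. The number of members called did not hold. For AOM-DSS WT against Control WT, 4 members were called higher, against 8 with DESeq2, 0 without a filter on low counts, 2 from lane 2 alone and 0 to 6 with 1 mouse left out. The share of all genes called in either direction was 14.96%, and under these alternatives 18.8%, 9.40%, 12.8% and 0.847% to 25.7%. For AOM-DSS Claudin-2TG against AOM-DSS WT, 1 was called lower, against 7 with DESeq2, 0 without a filter, 3 with all 9 mice in 1 fit, 2 with library size scaling, 2 with upper quartile scaling, 2 from lane 1 alone, 0 from lane 2 alone and 0 to 8 with 1 mouse left out. The share of all genes called was 9.54%, and in the same order 12.1%, 6.53%, 13.6%, 10.2%, 9.80%, 8.85%, 7.48% and 0.382% to 19.2%. For AOM-DSS Claudin-2TG against Control WT, 0 were called higher, and 0 to 1 with 1 mouse left out. The share of all genes called was 10.0%, and 3.44% to 8.95% with 1 mouse left out. The cause was not tested.

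Signs turned in AOM-DSS Claudin-2TG against Control WT alone, for members that were not called. Gbp4 was 0.13 from lane 1. With 1 mouse left out, values ran from -0.42 to 0.21 for Gbp4, -0.64 to 0.35 for Gbp3, -0.75 to 0.017 for Gbp5, -0.38 to 0.58 for Gbp6, -0.027 to 0.46 for Irgm1 and -0.10 to 0.76 for Irgm2.

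Over all genes, 2310 were called in AOM-DSS WT against Control WT, and 135 to 4080 with 1 mouse left out; 1421 in AOM-DSS Claudin-2TG against AOM-DSS WT, 2183 with DESeq2, 2136 with all 9 mice and 58 to 2894 with 1 mouse left out; and 1501 in AOM-DSS Claudin-2TG against Control WT, 2567 without a filter, 445 with all 9 mice and 525 to 1383 with 1 mouse left out. No paired analysis was possible because the groups share no replicate numbers. Gbp6 had 5 to 53 counts per mouse, which limits its precision.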
